A study of Mus musculus with 22 samples.

Results

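Collagens are the proteins that make up most of the extracellular matrix, and 44 genes that encode their chains were found among the 55487 genes counted in mouse brown adipose tissue (BAT). They were chosen by symbol as the protein-coding genes named Col, a type number, a, and a chain number, out of 21897 protein-coding genes. For description they were set in 3 classes by the known assembly of their proteins. These were 11 fibrillar genes, 6 basement membrane genes (the chains of type IV) and 27 others, which form beaded filaments, networks, membrane-bound collagens or molecules attached to fibrils.

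RNA was sequenced from BAT of C57BL/6 mice labelled male, 1 library from each mouse. The aim was to ask how loss of the RNA-binding protein CPEB2 and delivery of the brown fat regulator PRDM16 changed the tissue's transcripts. In the untreated cohort, 5 CPEB2-WT and 5 CPEB2-KO mice were sampled at 21 to 25 weeks of age. The paper reports that food was withheld from these mice for a few hours beforehand, and states no such step for the virus cohort. In the virus cohort, mice of 16 weeks received 2e+10 vector genomes of recombinant adeno-associated virus (AAV) in the interscapular BAT, and the tissue was taken 9 weeks later, at 25 weeks. Its 4 groups of 3 mice were WT + AAV-GFP, KO + AAV-GFP, WT + AAV-PRDM16 and KO + AAV-PRDM16, GFP being the control cargo. The knockout was global, so a change in BAT RNA need not begin in BAT cells, and WT and KO mice came from heterozygous crosses. The virus was packaged with AAV2/8 plasmids from the pAAV-MCS vector, and the share of cells it reached is not given in the sources used here. Mice shared chow, housing and genetic background, and the 2 cohorts were normalized and tested separately.

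A collagen chain repeats a triplet of residues that opens with glycine, Gly-X-Y, and 3 such chains wind into a triple helix. Types I, III and V build the fibrils that give connective tissue its tensile strength, type IV forms the sheet-like basement membrane that surrounds adipocytes and capillaries, and type VI forms beaded filaments around adipocytes. In adipose tissue, collagens are made by fibroblasts, preadipocytes, mural and endothelial cells and by adipocytes themselves. RNA from whole tissue cannot place a transcript in one of these cells, and fewer cells of a type and less RNA per cell cannot be told apart.

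The reference coding sequences show the difference between the classes that the symbol does not use. The windows that follow are 60 coding bases each, 5′ to 3′ on the sense strand, read from GENCODE M21 transcripts on GRCm38, where capitals mark the GGN glycine codon that opens each counted Gly-X-Y triplet and other glycine codons stay in lower case. The first 3 come from the middle of the longest repeat of a fibrillar chain, where the capitals return after each pair of lower-case codons. The type IV windows cross a short break in the repeat, and the last windows show where the longest repeat of a type VI or XXVIII chain meets an interruption.
Col1a1: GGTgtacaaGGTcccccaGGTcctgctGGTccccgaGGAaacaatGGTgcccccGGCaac
Col3a1: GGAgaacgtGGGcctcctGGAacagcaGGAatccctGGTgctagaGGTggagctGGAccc
Col5a3: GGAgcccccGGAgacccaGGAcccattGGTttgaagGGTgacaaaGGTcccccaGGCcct
Col4a1: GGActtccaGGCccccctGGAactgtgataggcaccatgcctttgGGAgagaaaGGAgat
Col4a2: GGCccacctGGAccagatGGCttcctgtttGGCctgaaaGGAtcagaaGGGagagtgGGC
Col6a1: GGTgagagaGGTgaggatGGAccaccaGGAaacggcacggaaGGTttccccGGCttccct
Col28a1: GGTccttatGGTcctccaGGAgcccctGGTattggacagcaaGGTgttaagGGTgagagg
These windows lie at codons 675 to 694 of Col1a1 (chromosome 11), 680 to 699 of Col3a1 (chromosome 1), 982 to 1001 of Col5a3 (chromosome 9), 326 to 345 of Col4a1 and 439 to 458 of Col4a2 (both chromosome 8), 505 to 524 of Col6a1 (chromosome 10) and 349 to 368 of Col28a1 (chromosome 6).

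Over the whole translated chains, runs of at least 5 Gly-X-Y triplets were counted. The longest run of Col1a1 held 338 triplets, that of Col1a2 339 and that of Col3a1 344. In the fibrillar chains Col24a1 and Col27a1 it held 216 and 217, and after a short break a run of 93 followed in each. Over all runs these 2 chains held 327 and 329 triplets, against 355 in Col1a1, 353 in Col1a2 and 357 in Col3a1. The type IV chains were cut into many runs, 22 in Col4a1 and 24 in Col4a2, with longest runs of 40 and 66 triplets. Col6a1 and Col6a2 each had a longest run of 87, and the longest run of Col28a1 was 28 among 17.

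**Figure D1:**
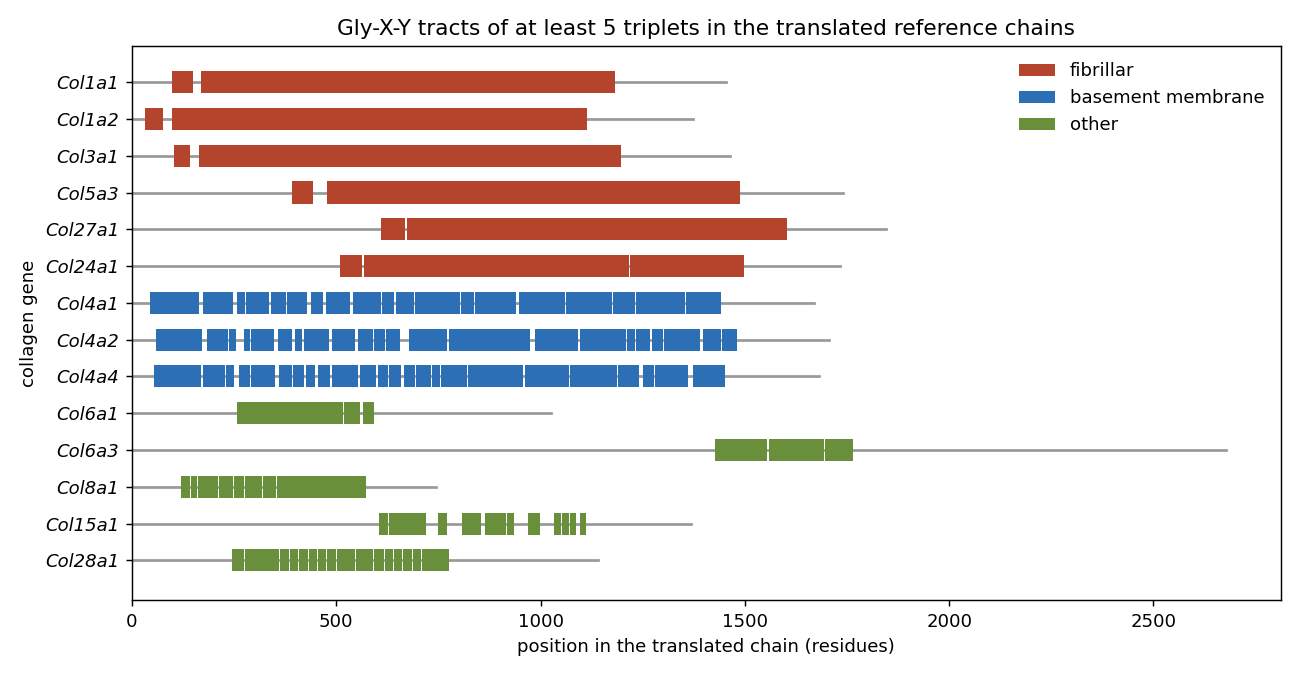
Gly-X-Y runs of at least 5 triplets (coloured blocks) along the translated reference chain (grey line, in residues) for 14 collagen genes, coloured by class. Col1a1 and Col3a1 show a single long block of 338 and 344 triplets beside a short one, Col4a1 and Col4a2 show 22 and 24 blocks.

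Total counts ran from 55320927 to 162721202 in the untreated libraries and from 61636889 to 143005309 in the AAV libraries. Cpeb2 reads were at 10.46 to 13.96 CPM (counts scaled to a common library size) in AAV WT and 4.329 to 5.548 CPM in AAV KO. In the untreated cohort they were at 7.692 to 14.32 CPM in WT and 2.104 to 5.776 CPM in 4 KO libraries, but at 11.65 CPM in the library labelled KO replicate 1. Summed Y-linked transcripts were at most 1.165 CPM in 6 of the 10 untreated libraries, which the labels call male, and at least 77.04 CPM in the other 4, against at least 153.8 CPM in the AAV libraries. The 6 were WT replicates 3 and 5 (2 of 5) and KO replicates 1, 3, 4 and 5 (4 of 5). Their Xist was at 104.3 to 304.5 CPM, which goes against the male label. Genotype and this split were thus partly aligned in untreated mice. WT replicate 4 held both signals, with Y-linked transcripts at 115.6 CPM and Xist at 14.02 CPM. WT replicates 1 and 2 were nearer to each other (median chi-square of a gene 11.2) than to the other WT libraries (36.9 to 58.3). Brown adipocyte markers (Ucp1, Cidea and 6 others) were present in every library, with summed levels of 3152 to 12000 CPM.

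Basement membrane transcripts were on average the most abundant collagen class per length. As mean CPM per kilobase of transcript over the 22 libraries, the 6 type IV genes made up 50.7% of the collagen total, the 11 fibrillar genes 30.3% and the 27 others 19.1%. The fibrillar share was the larger in untreated WT replicates 3 and 4 and KO replicate 1. There it was 39.5%, 43.1% and 40.1%, against 37.7%, 35.6% and 38.8% for type IV. Col4a1 and Col4a2, the chains of the ubiquitous basement membrane, led with 53.69 and 45 CPM per kilobase and ranges of 32.5 to 91.65 and 23.76 to 62.7. They made up 54.1% and 45.4% of their class. Their ranges overlap between libraries, but within each of the 22 libraries Col4a1 was the higher. The other type IV genes were far lower: Col4a5 was at 0.2814, Col4a4 at 0.09616 and Col4a3 at 0.08525 CPM per kilobase, and Col4a6 at 0.007609 with no count in 11 libraries.

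Among fibrillar genes Col3a1, the chain of the thin reticular fibrils, came first with 22.38 CPM per kilobase (8.846 to 62.25), followed by Col27a1 with 11.41. Col5a3 was at 7.195, Col1a2 at 7.044 and Col1a1 at 5.672 CPM per kilobase, and these last 3 were not separated beyond their ranges. Col2a1, the collagen of cartilage, was at 0.009448 with no count in 15 libraries. In the remaining class Col6a2 (10.14) and Col6a1 (9.679) led, and they pair with Col6a3 (3.521) in type VI microfibrils. Col15a1 (3.841) and Col18a1 (2.909), the basement-membrane-zone multiplexins whose C-terminal fragments are restin and endostatin, followed in CPM per kilobase. Col9a1 and Col9a2, the fibril-attached chains of cartilage, had 4 and 3 counts over all 22 libraries.

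**Figure D2:**
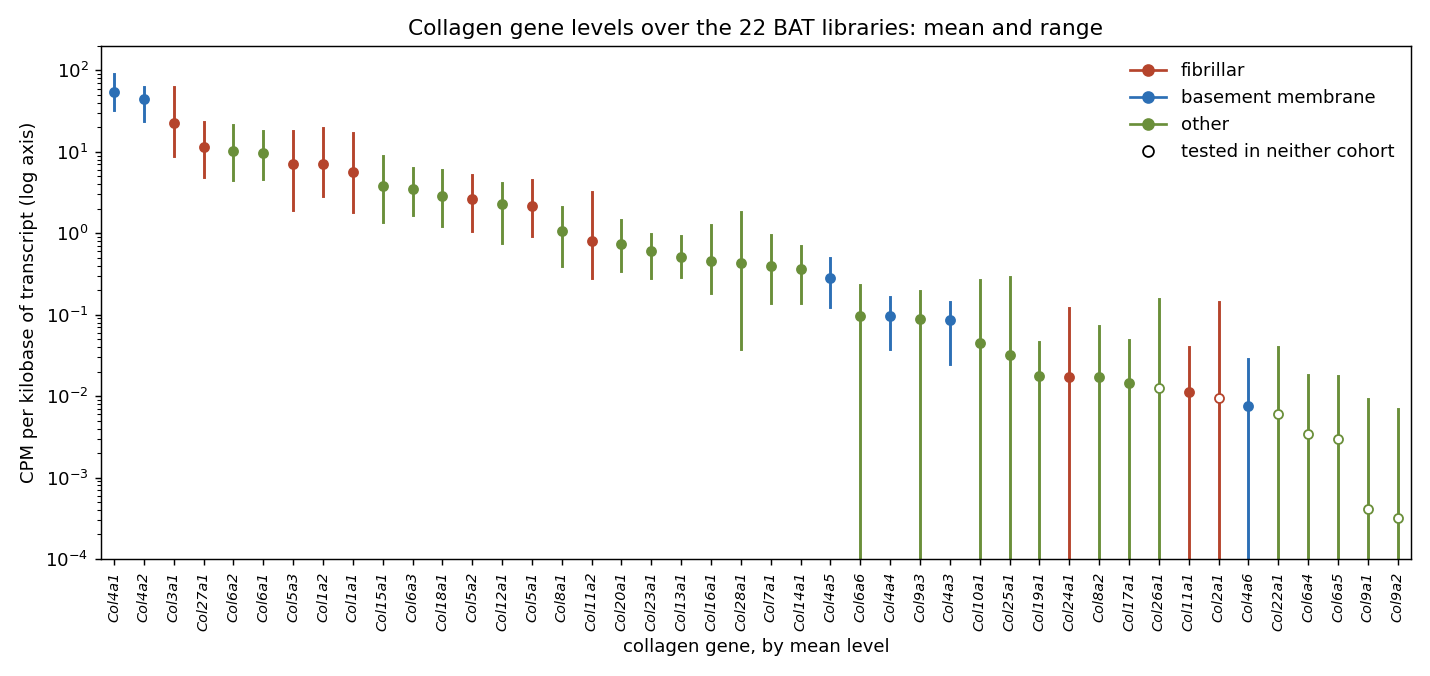
Mean (points) and range over 22 libraries (lines) of each collagen gene in CPM per kilobase of transcript on a log axis, ordered by mean and coloured by class, with open points for genes tested in neither cohort. Col4a1 (53.69) and Col4a2 (45) stand first, and values under the foot of the axis, including 0, are drawn at it.

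After a filter on low counts, 35 collagen genes were tested in each cohort and 33 in both. The genes that did not pass in the untreated cohort were Col2a1, Col6a4, Col6a5, Col8a2, Col9a1, Col9a2, Col19a1, Col22a1 and Col26a1. In the AAV cohort Col2a1, Col4a6, Col6a4, Col6a5, Col9a1, Col9a2, Col22a1, Col25a1 and Col26a1 did not pass. Tests used edgeR's quasi-likelihood F-test over 17869 genes for untreated and 18899 genes for AAV mice, and a gene was called at a Benjamini-Hochberg adjusted p under 0.05.

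Chains that share a molecule kept fairly steady ratios per length, with some exceptions. The level ratio of Col4a1 to Col4a2, which assemble in the same type IV molecule, lay between 1.007 and 1.462 over the 22 libraries. Its group means were 1.065 ± 0.06012 in WT + AAV-GFP and 1.178 ± 0.03288 in KO + AAV-GFP (SD, n = 3), and the libraries of those groups did not overlap (1.027 to 1.134 against 1.153 to 1.215). The ratio of Col1a1 to Col1a2, partners in type I collagen, stayed between 0.6235 and 0.7513 in the AAV libraries but was 0.7332 ± 0.1091 in untreated WT and 0.9706 ± 0.1601 in untreated KO (SD, n = 5), with overlapping libraries. The ratio of Col5a3 to Col5a1 varied most, from 2.092 to 8.658, and its highest value came from KO + AAV-GFP. These ratios were not tested.

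The class totals in the AAV cohort were on average higher in KO than in WT. The summed level of all collagens was 160 ± 17.66 CPM per kilobase in WT + AAV-GFP (142.4 to 177.7) and 229 ± 23.67 in KO + AAV-GFP (211.7 to 256). With AAV-PRDM16 it was 137.4 ± 14.53 in WT (120.6 to 146.6) and 208.1 ± 26.4 in KO (192.2 to 238.6; SD, n = 3 in each group). Each of the 6 KO libraries lay above each of the 6 WT libraries. The basement membrane sums of the genotypes did not overlap under either virus, with 80.35 to 89.26 against 118.9 to 134.8 CPM per kilobase under AAV-GFP and 67.33 to 79.49 against 106.7 to 131.9 under AAV-PRDM16. The fibrillar sums overlapped under AAV-GFP (34.69 to 57.56 in WT, 56.06 to 72.26 in KO) and did not under AAV-PRDM16 (34.75 to 39.69 against 45.37 to 65.68). So did the sums of the other class, at 24.81 to 34.22 and 33.78 to 48.86 under AAV-GFP. Under AAV-PRDM16 these were 18.52 to 31.6 and 33.43 to 41. The basement membrane sums were mostly Col4a1 and Col4a2, which held 54.1% and 45.4% of that class over the 22 libraries.

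Untreated libraries spread more widely. The fibrillar sum was 64.52 ± 39.85 CPM per kilobase in WT (33.32 to 130.7) and 75.7 ± 31.31 in KO (48.2 to 120; SD, n = 5 each), and the basement membrane sum 84.15 ± 23.95 (56.58 to 110.5) and 111.6 ± 24.84 (94.05 to 155). The groups overlapped in each class. The median coefficient of variation of the tested fibrillar genes within a group was 66.2% in untreated WT and 50% in untreated KO, against 25.5% to 33.2% in the 4 AAV groups. That of the type IV genes was lowest in KO + AAV-GFP, at 9.02%.

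**Figure D3:**
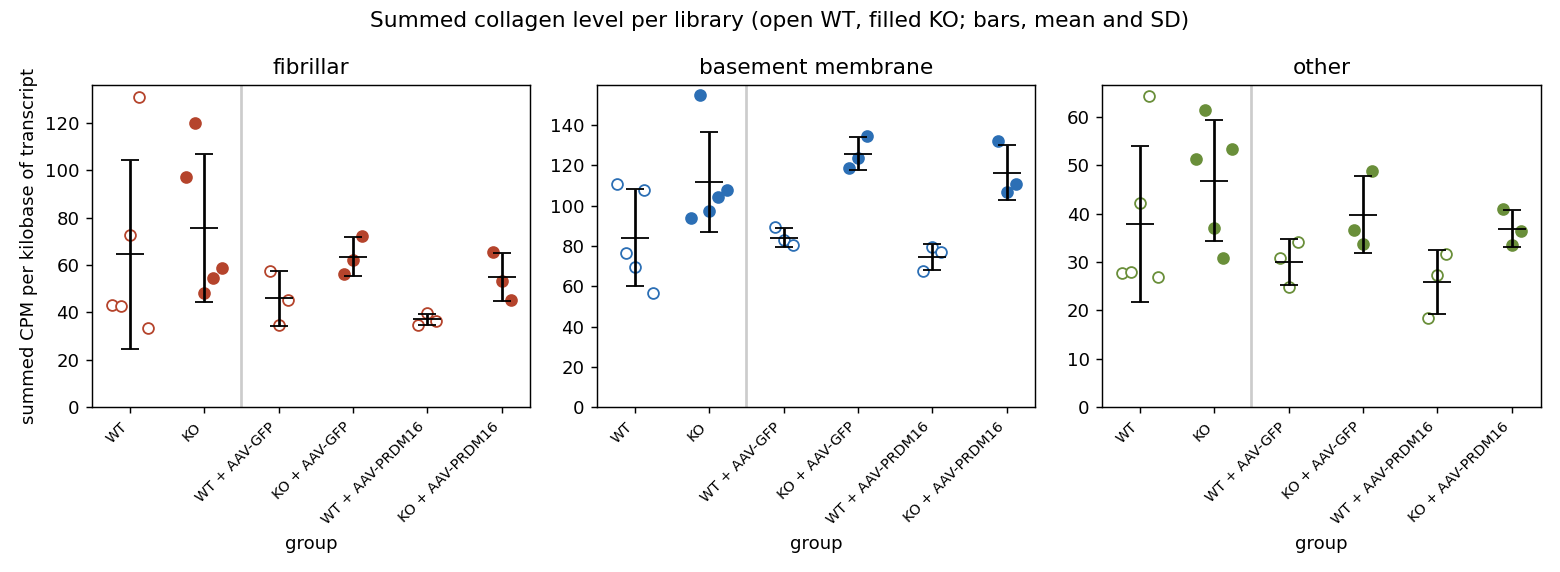
Summed level of the fibrillar, basement membrane and other collagen genes (CPM per kilobase of transcript) in each library by group, open for WT and filled for KO, with bars for the mean and SD. Under both viruses the KO points of the basement membrane panel (106.7 to 134.8) lie above the WT points (67.33 to 89.26), while untreated WT and KO overlap in each panel.

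The effect of genotype was first read in the AAV cohort, with WT and KO averaged over both viruses. Of the 35 collagen genes tested, 8 were higher in KO and 0 lower by edgeR's quasi-likelihood test, where 1.06% of all genes tested were called higher and 1.12% lower. They were the type IV genes Col4a1 and Col4a2, the fibrillar genes Col1a1, Col1a2, Col3a1 and Col5a3, and from the other class Col8a1 and Col28a1. The count was 4 or 5 without any 1 of 11 of the libraries and 7 without KO + AAV-GFP replicate 1. At an unadjusted p under 0.05, 15 of 35 were higher, against 9.54% of all genes, and 0 were lower. All 6 KO libraries exceeded all 6 WT libraries for 4 collagen genes (Col4a1, Col4a2, Col8a1 and Col28a1), against 1.13% of all genes tested. By class, the median log2 fold change was 0.66 over 10 fibrillar, 0.10 over 5 type IV and 0.35 over 20 other genes, beside 0.01 over all genes. The type IV median ran from -0.0029 to 0.23 when single libraries were left out.

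Col4a1 encodes the major type IV chain. Its levels were 297.8, 276.9 and 280.6 CPM in WT + AAV-GFP and 224.3, 265.9 and 266.6 CPM in WT + AAV-PRDM16. In KO they were 429.7, 435.3 and 477.3 CPM with AAV-GFP and 465.5, 378 and 421.4 CPM with AAV-PRDM16. The genotypes did not overlap, and Col4a1 was 1.62-fold higher in KO, a log2 fold change of 0.70 ± 0.08 (SE; edgeR quasi-likelihood, adjusted p = 0.00439). It kept its call when any 1 of the 12 libraries was left out.

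Col4a2, the second chain of that molecule, was at 282.7, 261.4 and 241.3 CPM in WT + AAV-GFP and 213.3, 249.6 and 232.3 CPM in WT + AAV-PRDM16. The KO libraries held 344.9, 368.1 and 399.6 CPM with AAV-GFP and 394.2, 317.2 and 299.7 CPM with AAV-PRDM16. Again each KO library lay above each WT library, by a log2 fold change of 0.52 ± 0.09 (SE; edgeR quasi-likelihood, adjusted p = 0.0145). The genes lie head to head, Col4a1 at chr8:11198423-11312826 on the minus strand and Col4a2 at chr8:11312805-11449287 on the plus strand (GRCm38), so reads in their short overlap cannot be assigned where the strand was not used in counting, which is not given in the sources used here. The minor type IV genes did not pass the test, with log2 fold changes of 0.10 for Col4a5, 0.04 for Col4a3 and -0.20 for Col4a4 and edgeR adjusted p from 0.624 to 0.953.

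Col28a1, a collagen with von Willebrand factor A domains known from peripheral nerve, had the steepest increase of the called collagen genes from a low level. It was at 0.959, 0.3186 and 1.066 CPM in WT + AAV-GFP and 0.1871, 0.741 and 0.5203 CPM in WT + AAV-PRDM16. In KO it was at 3.381, 3.571 and 4.514 CPM with AAV-GFP and 3.221, 2.868 and 4.293 CPM with AAV-PRDM16. Its lowest KO library stood well above its highest WT library, and the fold was 5.91, a log2 fold change of 2.56 ± 0.33 (SE; edgeR quasi-likelihood, adjusted p = 0.00838). Of 6 Schwann cell markers 1 had a positive log2 fold change, against 51.6% of all genes. Gfra3 fell by 1.09 on the log2 scale (edgeR adjusted p = 0.0248), where 1.12% of all genes were called lower.

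Col8a1, a short-chain network collagen made in vessel walls and in activated mesenchymal cells, was at 3.576, 3.24 and 4.05 CPM in WT + AAV-GFP and 3.064, 4.634 and 3.922 CPM in WT + AAV-PRDM16. In KO it was at 5.943, 7.078 and 8.139 CPM with AAV-GFP and 8.771, 6.494 and 9.57 CPM with AAV-PRDM16. The genotypes were separate, with a 2.04-fold higher level in KO and a log2 fold change of 1.03 ± 0.14 (SE; edgeR quasi-likelihood, adjusted p = 0.00838). Col28a1 and Col8a1 also kept their calls with any 1 library left out.

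The 4 called fibrillar genes rested on less even data. Col3a1 was at 87.44, 60.91 and 103.7 CPM in WT + AAV-GFP and 49.22, 66.47 and 69.55 CPM in WT + AAV-PRDM16, against 117.9, 92.67 and 143.5 CPM in KO + AAV-GFP and 128.2, 107.6 and 97.89 CPM in KO + AAV-PRDM16. The highest WT library (AAV-GFP replicate 3) lay above 2 KO libraries. The log2 fold change was 0.67 ± 0.15 (SE; edgeR quasi-likelihood, adjusted p = 0.0429), and the adjusted p lay between 0.0519 and 0.119 when single libraries were left out, so that the call was lost without any one of the 12.

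Col1a1 and Col1a2 encode the chains of type I collagen, the main fibril protein of skin, bone and scar. Col1a1 was at 15.53, 14.75 and 23.13 CPM in WT + AAV-GFP and 10.76, 15.59 and 14.41 CPM in WT + AAV-PRDM16, and at 25.25, 22.72 and 40.63 CPM in KO + AAV-GFP and 25.83, 20.59 and 20.48 CPM in KO + AAV-PRDM16. Col1a2 was at 20.42, 20.15 and 31.33 CPM in WT + AAV-GFP and 15.57, 22.06 and 19.61 CPM in WT + AAV-PRDM16, and at 33.89, 31.5 and 48.78 CPM in KO + AAV-GFP and 33.38, 28.69 and 25.99 CPM in KO + AAV-PRDM16. For both genes the third WT + AAV-GFP library overlapped with KO, and the third KO + AAV-GFP library was the highest of the 12. Log2 fold changes were 0.72 ± 0.17 for Col1a1 and 0.64 ± 0.15 for Col1a2 (SE; edgeR quasi-likelihood, adjusted p = 0.0484 and 0.0478). Col1a1 kept its call in 1 and Col1a2 in 2 of the 12 fits that left out 1 library.

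Col5a3, a type V chain that sets fibril diameter, had the largest change among the called fibrillar genes. It was at 35.54, 15.29 and 23.36 CPM in WT + AAV-GFP and 11.76, 26.5 and 25.62 CPM in WT + AAV-PRDM16. In KO it was at 73.39, 111 and 52.23 CPM with AAV-GFP and 59.78, 65.55 and 28.85 CPM with AAV-PRDM16. The third KO + AAV-PRDM16 library fell within the WT range, and the first WT + AAV-GFP library lay above it. The log2 fold change was 1.47 ± 0.29 (SE; edgeR quasi-likelihood, adjusted p = 0.0287), called in 5 of the 12 fits that left out 1 library. Its partners did not pass: Col5a1 had a log2 fold change of 0.75 (edgeR adjusted p = 0.0585) and Col5a2 of 0.46 (adjusted p = 0.316).

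**Figure D4:**
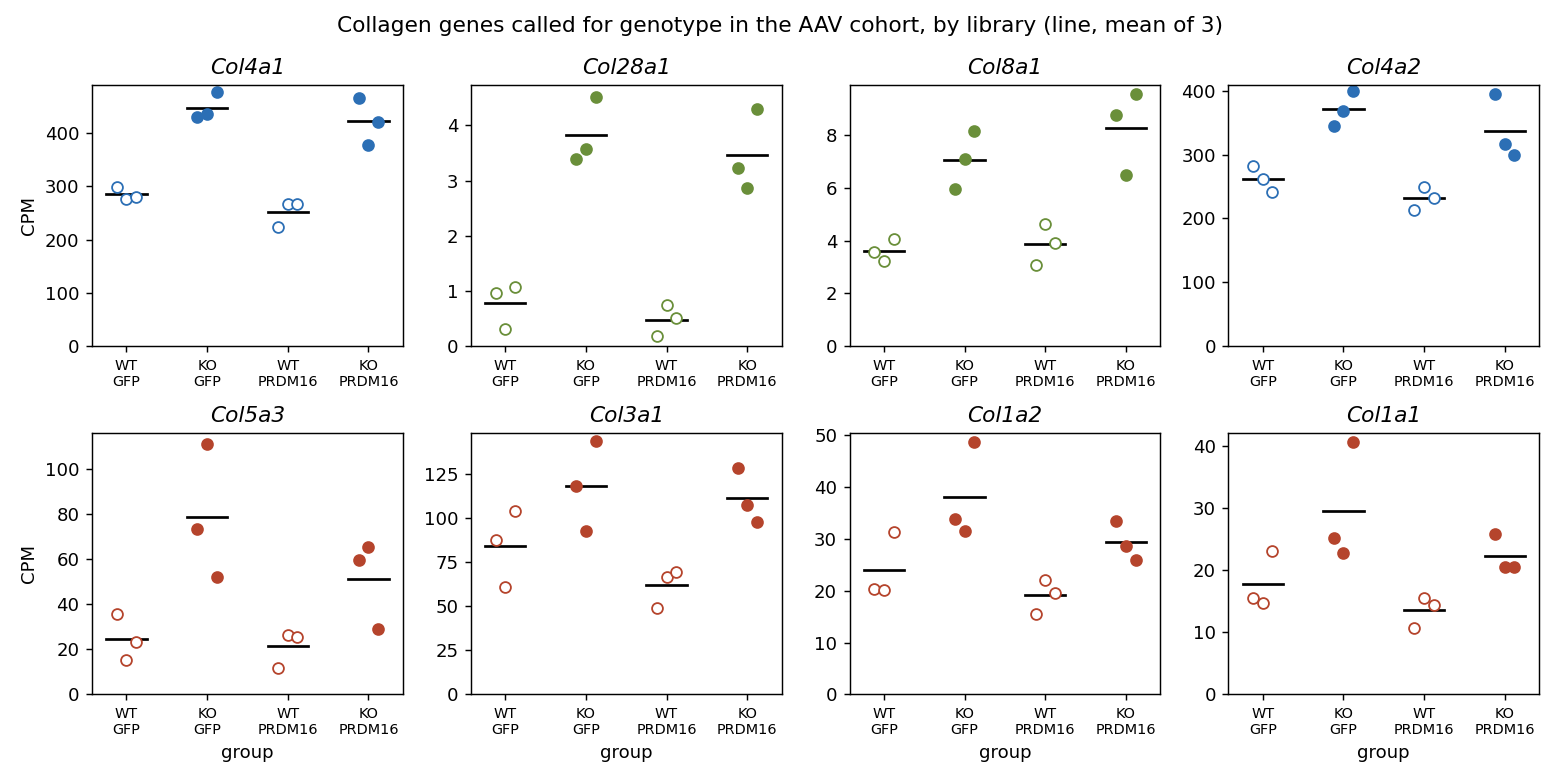
CPM per library (points, open for WT and filled for KO) and mean of 3 (lines) in the 4 AAV groups for the 8 collagen genes called for genotype, ordered by p and coloured by class. Col4a1, Col28a1, Col8a1 and Col4a2 separate all 6 KO from all 6 WT libraries, while the genotypes overlap in each fibrillar panel.

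Several abundant collagen genes did not pass in the same comparison. For the type VI genes the log2 fold changes were 0.51 for Col6a1, 0.39 for Col6a2 and 0.39 for Col6a3 (edgeR adjusted p = 0.0868, 0.194 and 0.335). Those of Col18a1 and Col15a1 were 0.64 and 0.51 (edgeR adjusted p = 0.129 and 0.232). Col27a1, the fibrillar gene second in level, ran from 66.02 to 176.6 CPM in WT and from 53.44 to 123.6 CPM in KO over the AAV libraries, with a log2 fold change of -0.25 ± 0.25 (SE; edgeR quasi-likelihood, adjusted p = 0.652). Over the 35 tested genes 24 had a positive log2 fold change, against 51.6% of all genes. The lowest, -2.56 ± 1.25 for Col10a1, came from a gene under 0.5 CPM in each AAV library.

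**Figure D5:**
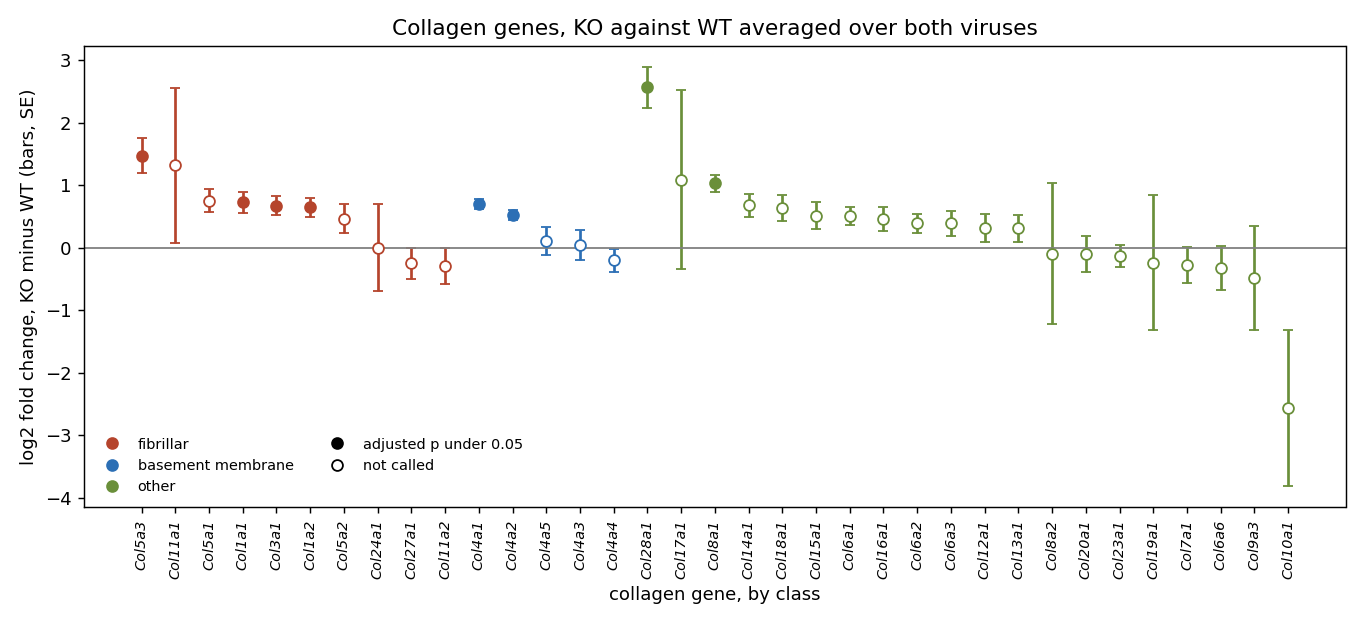
Log2 fold change of KO over WT averaged over both viruses (points, bars for SE) for the 35 tested collagen genes, grouped by class and filled where the adjusted p was under 0.05. The 8 filled points are all above 0, from 0.52 (Col4a2) to 2.56 (Col28a1), and the widest bars belong to genes with few counts.

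Under each virus alone fewer collagen genes were called. Between KO and WT with AAV-GFP, 0 of 35 collagen genes were called by edgeR, where 0.0529% of all genes were. At an unadjusted p under 0.05, 10 were higher, against 4.98% of all genes, and DESeq2 called 5, where it called 1.29% of all genes. Col4a1 had a log2 fold change of 0.65 ± 0.11 (SE; edgeR quasi-likelihood, adjusted p = 0.0854). With AAV-PRDM16, 1 of 35 was called, where 0.0476% of all genes were: Col4a1, at 0.74 ± 0.11 (SE; edgeR quasi-likelihood, adjusted p = 0.0404). Its call was lost in an edgeR fit of the libraries of the 2 groups alone (adjusted p = 0.0828), and in 9 of the 12 fits that left out 1 library. Here 12 were higher at an unadjusted p under 0.05, against 6.92% of all genes, 1 was lower (Col4a4), and DESeq2 called 5, where it called 3.28% of all genes. These 2 comparisons shared no library, only the estimate of the spread. Log2 fold changes were positive for 26 collagen genes with AAV-GFP and for 24 with AAV-PRDM16, against 51.5% and 51.4% of all genes. Those of Col28a1 were 2.29 and 2.83 and those of Col8a1 0.96 and 1.09.

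PRDM16 delivery did not give a called collagen gene by edgeR. Averaged over both genotypes, 0 of 35 were called, where 0.037% of all genes were, and 4 were lower at an unadjusted p under 0.05 (Col1a1, Col1a2, Col4a4 and Col5a2), against 7.02% of all genes. DESeq2 also called 0. The class medians of the log2 fold change were -0.35 for fibrillar, -0.30 for type IV and -0.14 for other genes, beside -0.01 over all genes. The type IV median weighs each of 5 genes alike, most of them low in level, and the values ran from -0.51 to -0.13. The type IV sum, mostly Col4a1 and Col4a2, was 84.17 CPM per kilobase with AAV-GFP and 74.53 with AAV-PRDM16 in WT. In KO it was 125.8 and 116.4. Of the 35 collagen genes 8 were positive, against 48.4% of all genes. Values were -0.40 for Col1a1, -0.35 for Col1a2 and -0.55 for Col5a2 (edgeR adjusted p = 0.469, 0.473 and 0.462).

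Within WT, PRDM16 against GFP gave 0 calls of 35, where 0% of all genes were called, and 1 gene at an unadjusted p under 0.05, against 7.29% of all genes: Col5a2, at -0.75 ± 0.33 (SE; edgeR quasi-likelihood, adjusted p = 0.661). That value was -0.25 without WT + AAV-GFP replicate 1 and -1.04 without replicate 2. Col3a1 was next, at -0.44 (adjusted p = 0.697). DESeq2 called 0. Within KO there were also 0 calls, where 0% of all genes were called, and 1 gene at an unadjusted p under 0.05, against 6.41% of all genes. It was Col4a4, a chain of the specialised type IV network of kidney and inner ear, at 1.177, 1.364 and 1.396 CPM in KO + AAV-GFP and 0.6045, 0.8048 and 0.5178 CPM in KO + AAV-PRDM16. These groups did not overlap, with a log2 fold change of -1.02 ± 0.27 (SE; edgeR quasi-likelihood, adjusted p = 0.313), and DESeq2 called it. Col4a5 was next, at -0.58 (edgeR adjusted p = 0.973). In WT, Col4a4 was at 1.111, 0.8812 and 1.172 CPM with AAV-GFP and 1.111, 1.217 and 0.8576 CPM with AAV-PRDM16, which overlap.

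The test of whether the virus effect differed between genotypes called 0 of 35 collagen genes, where 0% of all genes were called, and 1 passed an unadjusted p under 0.05, against 3.19% of all genes. That gene was again Col4a4, with an interaction of -1.03 ± 0.37 on the log2 scale (SE; edgeR quasi-likelihood, adjusted p = 1). Col24a1, a minor fibrillar chain under 0.15 CPM in each AAV library, had 1.82 ± 1.39 (adjusted p = 1). DESeq2 called 0.

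In untreated BAT, 0 of 35 collagen genes were called between KO and WT, where 0% of all genes were. None passed an unadjusted p under 0.05 either, where 15.9% of all genes did, and DESeq2 called 0. Without WT replicates 1 and 2, which stand apart from the other WT libraries, again none passed, where 1.68% of all genes were higher and 0.648% lower at that p. With the presence of Y-linked reads in the model, 3 collagen genes were higher at that p, against 3.15% of all genes, and 0 were called. Leaving out any 1 of the 10 libraries gave 0 calls too. Among these libraries was KO replicate 1, with Cpeb2 at 11.65 CPM. Col4a1 was at 364.6, 260.7, 258, 403.8 and 215 CPM in WT and 353.2, 606.3, 351.8, 394.2 and 386.1 CPM in KO, which overlap, with a log2 fold change of 0.48 ± 0.26 (SE; edgeR quasi-likelihood, adjusted p = 0.355). Col4a4 was at 1.305, 1.664, 0.9688, 1.044 and 0.8239 CPM in WT and 0.3787, 1.221, 0.645, 0.5955 and 0.526 CPM in KO. All but the second KO library lay below each WT library, with a log2 fold change of -0.78 ± 0.41 (SE; edgeR quasi-likelihood, adjusted p = 0.342). Col25a1, a membrane-bound collagen, was at 0.02874 to 0.2103 CPM in WT and 0.02304 to 0.764 CPM in KO, with a log2 fold change of 1.68 ± 0.90 (SE; edgeR quasi-likelihood, adjusted p = 0.349). Without KO replicate 5 it was 0.54, and without WT replicate 4 it was 2.57. Col8a1, higher in KO with virus, was here on average lower in KO, at 4.244 CPM against 6.31 CPM in WT. Its libraries overlapped, at 4.8 to 10.68 CPM in WT and 2.05 to 9.395 CPM in KO, and it did not pass (edgeR adjusted p = 0.468). Col28a1 was at 7.624 CPM in KO replicate 2, but at 0.1612 to 1.224 CPM in the other 4 KO libraries and 0.3963 to 2.103 CPM in WT (edgeR adjusted p = 0.483). The 2 cohorts were not tested against each other.

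Col1a1 and Col3a1 varied together between mice of 1 genotype. Col1a1 was at 14.82, 17.1, 39.53, 99.84 and 19.17 CPM in untreated WT and 83.03, 95.94, 35.68, 31.08 and 54.1 CPM in untreated KO. Col3a1 was at 72.11, 86.23, 185, 346.3 and 57.36 CPM in WT and 248.4, 268.2, 102.6, 127.4 and 120.5 CPM in KO. WT replicate 4 was the highest library for both, followed by KO replicates 2 and 1. In KO replicate 1 Cpeb2 was at 11.65 CPM, within the untreated WT range of 7.692 to 14.32 CPM. These 3 libraries also had the highest summed macrophage markers, 293.8, 230.1 and 372.3 CPM in that order, against 37.65 to 76.05 CPM in the other 7. Summed skeletal muscle markers were 5589 and 6282 CPM in KO replicates 1 and 2, 3159 CPM in WT replicate 3 and 1037 CPM in KO replicate 5, but 13.29 CPM in WT replicate 4. White adipocyte markers summed to 207.3, 267.8 and 253.4 CPM in WT replicate 4, KO replicate 2 and KO replicate 1. The other libraries held at most 103.9 CPM. Chondrocyte and tendon markers summed to 2.897, 3.852 and 8.973 CPM there, against at most 2.877 CPM in the others. Not every list followed these libraries. Fibroblast and preadipocyte markers summed to 730.8, 975.2 and 964.4 CPM there, below KO replicate 5 (1382 CPM) and KO replicate 4 (1053 CPM). Endothelial markers summed to 678.9, 1063 and 379.7 CPM, against 378.8 to 680.3 CPM in the other 7. The part of these cell types in the collagen levels was not tested. The untreated class medians of the log2 fold change moved with the libraries and the method. The fibrillar median was 0.38, but 0.82 without WT replicate 4, 0.19 without WT replicate 5, 0.18 without WT replicates 1 and 2, 0.61 with Y-linked reads in the model, 0.0586 with limma-voom and 0.20 with GC and length offsets. Without WT replicate 4, 8 of 34 tested collagen genes were higher at an unadjusted p under 0.05, against 6.63% of all genes, with 0 called. The type IV median was -0.40 and ran from -0.64 to -0.24 with 1 library left out, the last without KO replicate 1. It was -0.19 with a filter of 0.5 CPM, -0.0962 without WT replicates 1 and 2 and -0.0941 with Y-linked reads in the model. This median weighs each type IV gene alike, most of them low in level. The type IV sum, mostly Col4a1 and Col4a2, went the other way on average, with 84.15 CPM per kilobase in WT and 111.6 in KO. That of the other class was 0.18, but -0.15 with limma-voom, -0.07 with GC and length offsets and -0.13 without KO replicate 2.

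Cell type markers moved with genotype in the AAV cohort too, averaged over both viruses. Over all genes tested there, 1.06% were called higher, 1.12% were called lower and 51.6% had a positive log2 fold change. At an unadjusted p under 0.05, 9.54% of all genes were higher. All 6 macrophage markers had positive log2 fold changes and 3 were higher in KO (Csf1r 1.02, Mrc1 0.88 and Cd163 1.23; edgeR adjusted p = 0.0349, 0.0264 and 0.0095). Their summed level was 35.34 to 102.5 CPM in WT and 64.02 to 288.2 CPM in KO, and KO + AAV-GFP replicate 3, at 288.2 CPM, was also the highest library for 16 of the 35 collagen genes. WT + AAV-PRDM16 replicate 1, at 35.34 CPM, was the lowest library for 19 of the 35, and without it the type IV median of the genotype comparison was -0.0029. How often these libraries were the highest or lowest over all genes was not counted, so these counts have no background. KO + AAV-GFP replicate 3 also had the highest TMM scaling factor, 1.205, against 0.9021 to 1.039 in the other AAV libraries. Of 8 fibroblast and preadipocyte markers 7 were positive and 2 were higher in KO (Mfap5 0.95, Cd34 0.99; edgeR adjusted p = 0.0449 and 0.0145), with summed levels of 271.6 to 452.7 CPM in WT and 399.9 to 509 CPM in KO. Of 8 brown adipocyte markers 1 was positive and 2 fell, Cidea by 0.39 and Cox8b by 0.66 on the log2 scale (edgeR adjusted p = 0.0378 and 0.0189). None of 8 endothelial or 6 mural markers was called (5 and 3 at an unadjusted p under 0.05), with 376.9 to 500.5 and 444.8 to 578.3 CPM in WT and 370.8 to 597 and 545.7 to 711.5 CPM in KO. White adipocyte markers summed to 11.43 to 60.41 CPM in WT and 51.7 to 252.8 CPM in KO, with 2 of 4 positive and 0 called. The 3 chondrocyte and tendon markers were all positive (median log2 fold change 1.04, 0 called), with sums of 0.4047 to 0.8374 CPM in WT and 0.629 to 2.028 CPM in KO. The part of these cell types in the collagen differences was not tested.

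Genes that act on collagens were read from the same averaged genotype comparison, 65 tested in 8 lists. Of these 8 were called higher in KO, 0 lower and 53 were positive. Over all genes tested 1.06% were called higher, 1.12% lower and 51.6% were positive. At an unadjusted p under 0.05, 9.54% of all genes were higher and 8.76% lower. None of the 16 genes for chain modification and folding was called (2 higher and 2 lower at an unadjusted p under 0.05). The collagen chaperone Serpinh1 was at -0.11, the prolyl hydroxylase subunit P4hb at 0.13 and the lysyl hydroxylase Plod1 at 0.00 on the log2 scale (edgeR adjusted p = 0.653, 0.391 and 0.993). Among 7 genes for propeptide processing Adamts2, which removes the N-propeptide of fibrillar procollagens, was higher by 0.59 (adjusted p = 0.0382), while the procollagen C-proteinase Bmp1 (0.44) and its enhancer Pcolce (0.72) did not pass. Of 5 crosslinking enzymes Loxl2 was higher, by 0.72 (adjusted p = 0.0342), with Lox at 0.50 (adjusted p = 0.102).

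On the degrading side, 1 of 5 tested collagenases and gelatinases was higher, Mmp13 by 1.21 (edgeR adjusted p = 0.0491), and Mmp2 was at 0.53 (adjusted p = 0.0833). Of 9 fibril partners 3 were higher, the proteoglycan Bgn by 0.86, the microfibril protein Fbn1 by 0.82 and fibronectin, Fn1, by 0.66 (adjusted p = 0.0138, 0.00838 and 0.0207). Of 10 basement membrane partners Nid1, which links laminin to type IV collagen, was higher by 0.87 and the laminin chain Lamc1 by 0.37 (adjusted p = 0.0116 and 0.0418), while the perlecan gene Hspg2 was at 0.34 (adjusted p = 0.302). None of 7 receptors was called (4 higher at an unadjusted p under 0.05; Itgb1 0.25, Itga1 0.28). None of 6 genes of the TGF-beta axis that induces collagens was called either (3 higher and 1 lower at an unadjusted p under 0.05; Tgfbr2 0.26, Tgfbr1 0.21, Tgfb1 0.18). In untreated BAT no gene of the 8 lists was called by edgeR, where 0% of all genes were.

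CPEB proteins bind a U-rich element in the 3′ untranslated region (3′UTR). The DNA letters of its core, TTTTAT, searched on the sense strand, were found in the 3′UTR of 22 of 42 collagen genes (52.4%) and of 9591 of 20427 coding genes (47%). Per length the motif occurred 0.928 times per kilobase in collagens and 1.02 times in all coding genes. A match describes letters only, and these counts measure RNA level, not translation.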

How the data were processed

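RNA was sequenced from BAT of 22 mice in 2 cohorts, 1 SureSelect XT HS2 mRNA library per mouse. The authors deposited 1 table per cohort of gene counts, whole numbers with no normalization. The submitters' processing notes name bcl2fastq 2.20, Trimmomatic 0.36, HISAT2 and the build GRCm38.p6, and the counting tool and its use of strand are not given in the sources used here. Gene names, coordinates, transcripts and sequences came from GENCODE M21 on GRCm38. Levels are CPM scaled by TMM factors, and CPM per kilobase divides by the length of the transcript with the longest complete coding sequence.

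Each cohort was fitted on its own with edgeR 4.0.16 (R 4.3.3): filterByExpr, TMM, and the quasi-likelihood F-test, two-sided, with Benjamini-Hochberg adjustment over all genes tested. Groups came from the sample labels. SEs came from the weights of the fitted model. The pipeline was run on simulated counts with less spread than these data, whose fitted common dispersion (spread between libraries) was 0.312 for untreated and 0.0887 for AAV. That run therefore cannot tell how many changes are found at the spread of these data. Alternatives used DESeq2 1.42.0, limma-voom 3.58.1 and other filters, offsets and sample sets.

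The collagen genes and the lists of other genes were chosen with earlier results of these data known. Genes named with values were the 5 highest per class, each gene called in a comparison, and the 2 smallest p of each comparison. Of the lists of genes that act on collagens, the 3 with the highest counts and each called gene were named. The genes that failed the filter were to be named by symbol only, and the values given for Col2a1, Col4a6, Col9a1, Col9a2, Col5a1 and Col10a1 were added after they were seen.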

Additional observations from a re-analysis of the deposited data

Results flagged for a closer look

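Of 46 sets of 5 untreated libraries, each a named collagen gene in CPM or a class mean of log2 CPM in 1 genotype, 9 had 1 library whose gap to its nearest neighbour exceeded 0.71 of the whole range, the Dixon limit for 5 samples. Chance gives about 1 such set in 20 only for independent sets of normally distributed values. Here the sets share the same libraries and most are CPM without a log, so 9 of 46 cannot be set against that rate. Groups of 3 were not examined.

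In KO replicate 2, Col4a1 was at 606.3 CPM, with the next KO library at 394.2 CPM. Col27a1 was at 121.8 CPM there (next 55.02), Col15a1 at 45.83 CPM (next 22.45), Col8a1 at 9.395 CPM (next 4.108) and Col28a1 at 7.624 CPM (next 1.224). This library was the highest for 12 of the 35 collagen genes tested in the untreated cohort. Its TMM scaling factor was 1.472, against 0.8301 to 1.07 in the other untreated libraries. In WT replicate 4, Col8a1 was at 10.68 CPM (next 6.121), Col28a1 at 2.103 CPM (next 0.8581) and Col25a1 at 0.2103 CPM (next 0.04966). It was the highest library for 10 of the 35. How often either library was the highest over all genes was not counted. In KO replicate 5, Col25a1 was at 0.764 CPM, with the next KO library at 0.1401 CPM.

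KO replicate 2 also had the highest summed skeletal muscle markers of the cohort, 6282 CPM, and the highest summed endothelial markers, 1063 CPM against 378.8 to 680.3 CPM in the other 9 libraries. Their part in these collagen levels was not tested.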

How the results depend on the processing

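No called collagen result changed direction under the alternatives run. For KO against WT averaged over both viruses, the count of 8 called genes became 5 with no filter on low counts, 5 with GC and length offsets and 4 at a 2-fold change with FDR 0.5 (3 higher, 1 lower). Both 5s left out Col1a1, Col1a2 and Col3a1, with edgeR adjusted p of up to 0.0783. DESeq2 called 12 and limma-voom 11, where they called 8.38% and 6.71% of all genes, against 2.18% by edgeR. With 1 library left out the count was 4 to 7, and Col4a2 lost its call only without WT + AAV-GFP replicate 3 (edgeR adjusted p = 0.0513). With AAV-GFP, KO against WT gave 1 at FDR 0.1, 2 at a 2-fold change with FDR 0.5 and 5 with DESeq2. With AAV-PRDM16 it gave 3 at FDR 0.1, 4 at a 2-fold change with FDR 0.5, 5 with DESeq2, 5 with limma-voom, and 0 with GC and length offsets or only the compared groups. Leaving out 1 library gave 0 to 1 there. Within KO, PRDM16 against GFP gave 1 with DESeq2 and 1 at a 2-fold change with FDR 0.5, which in untreated mice gave 4 (3 higher, 1 lower). The share of all genes passing was not counted at FDR 0.1 or at a 2-fold change with FDR 0.5. Those counts therefore have no background and cannot be read as a result about collagens. Shares for limma-voom with AAV-PRDM16 and for DESeq2 within KO are not given here. The cause of these changes was not tested.

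With limma-voom the class median log2 fold change was -0.28 (edgeR -0.54) for type IV and 0.27 (edgeR -0.0117) for fibrillar genes in the interaction, 0.32 (edgeR 0.58) for fibrillar genes in KO against WT with AAV-GFP, and -0.31 (edgeR -0.58) for type IV and -0.0388 (edgeR -0.29) for fibrillar genes in PRDM16 against GFP within KO. With 1 library left out, the interaction medians ran from -0.69 to -0.30 (type IV) and from -0.14 to 0.23 (fibrillar). The type IV medians ran from 0.26 to 0.55 for genotype with AAV-GFP (0.37 with all libraries), from -0.37 to 0.0744 for genotype with AAV-PRDM16 (-0.17), from -0.61 to -0.37 for virus in KO (-0.58) and from -0.23 to -0.0193 for virus in WT (-0.0439). Type IV medians weigh each gene alike, whereas Col4a1 and Col4a2 held 54.1% and 45.4% of the class level.

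Libraries of the same replicate number did not deviate together. Correlations of their deviations lay between -0.091 and 0.154 over 18 AAV pairs and between -0.292 and 0.111 over 5 untreated pairs. In a fit with the replicate block, the averaged genotype comparison called 8 collagen genes and KO against WT with AAV-PRDM16 called 0. The model of untreated mice with Y-linked reads as a term was chosen after seeing the data. Genes under a few counts per library, such as Col9a1, cannot be compared at this depth.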
